A study of Mus musculus with 6 samples.

Results

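The genes described here are the NRF2 antioxidant and glutathione genes of BV2 cells, a list of 10 genes chosen by symbol among the 46095 gene symbols of the count table. The list holds the transcription factor gene Nfe2l2, the gene of its inhibitor Keap1, and the target genes Hmox1, Nqo1, Gclc, Gclm, Gsr, Txnrd1, Srxn1 and Slc7a11. BV2 is an immortalized mouse microglial line, so the replicates come from 1 line and not from animals. Cells of the CON group were untreated, cells of the sTREM-1 group were incubated for 6 h with recombinant sTREM-1 protein (the soluble form of the receptor TREM-1) at 1 μg/mL, and 3 libraries of each group were compared to learn which genes responded. All 10 genes passed the filter on low counts, as did 14120 genes in the whole table.

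The libraries held between 40070633 and 45877107 counts. Counts are given below as CPM, counts brought to a common library size after TMM scaling. As a check of the cell label, 12 of 14 microglia and macrophage markers averaged at least 1 CPM over the 6 libraries, among them Csf1r and Itgam, while Aif1 had 0 counts in all libraries and Tmem119, Cx3cr1 and P2ry12, markers of resting microglia in the brain, were between 0.668 and 1.77 CPM in group means. The summed microglia and macrophage markers ranged from 3194 to 3223 CPM in the CON group and from 3521 to 3578 CPM in the sTREM-1 group. Of the 13 tested markers 6 were called higher and 0 lower (edgeR adjusted p-value under 0.05), against 16.5% and 14.1% of all tested genes. The 5 neuron markers summed to at most 0.302 CPM (Rbfox3 at 0) and the 5 astrocyte markers to at most 1.26 CPM (Aqp4 and Aldh1l1 at 0) in any library. The 5 oligodendrocyte markers summed to 25.0 to 25.9 CPM in the CON group and to 25.6 to 29.1 CPM after sTREM-1 (Mog at 0, Cnp called higher). The 5 endothelial markers, of which Flt1 gave nearly all counts and was called higher, summed to 176 to 193 CPM and to 224 to 229 CPM (Cldn5 at 0). The part of these markers in the results was not tested. Because the RNA came from whole wells, more cells with a transcript and more transcript per cell cannot be told apart. Handling of the wells and treatment also cannot be told apart, since the labels give no batch.

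NRF2, the product of Nfe2l2, is a transcription factor that is held at a low level by KEAP1, an adaptor that presents it to a CUL3 ubiquitin ligase for degradation. Oxidants and electrophiles modify cysteines of KEAP1, NRF2 then accumulates, pairs with a small MAF protein and binds antioxidant response elements (AREs) of genes for glutathione synthesis, thioredoxin reduction and heme breakdown. The factor is therefore regulated largely as a protein, which RNA-seq does not measure. In macrophages and microglia these genes are known as a defence against the oxidants that the cells themselves release.

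After sTREM-1 treatment, Slc7a11 (the xCT cystine transporter), both glutamate-cysteine ligase subunit genes, Gsr (glutathione reductase) and Hmox1 (heme oxygenase 1) were higher, while the mRNA of the factor itself and of its inhibitor did not pass the test. Of the 10 genes, 5 rose (Gclm, Gsr, Hmox1, Slc7a11 and Gclc), 1 fell (Srxn1) and 4 did not pass (Nqo1, Keap1, Txnrd1 and Nfe2l2), with edgeR's quasi-likelihood test and an adjusted p-value under 0.05 over all tested genes. The share of all tested genes called in the same way was 30.5%, with 16.5% higher and 14.1% lower, so that 6 of 10 is to be read against about 3 of 10. With a change of at least 1.2-fold required as well, 2 members (Gclm and Gsr) were called, against 10.7% of all tested genes. The median log2 fold change was 0.18 over the 10 genes and -0.0017 over all tested genes. The rises were small, between 9.88% and 39.9%. The libraries of both groups did not overlap for 7 of the 10 genes (6 higher and 1 lower after sTREM-1), against 40.7% of all tested genes.

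**Figure D1:**
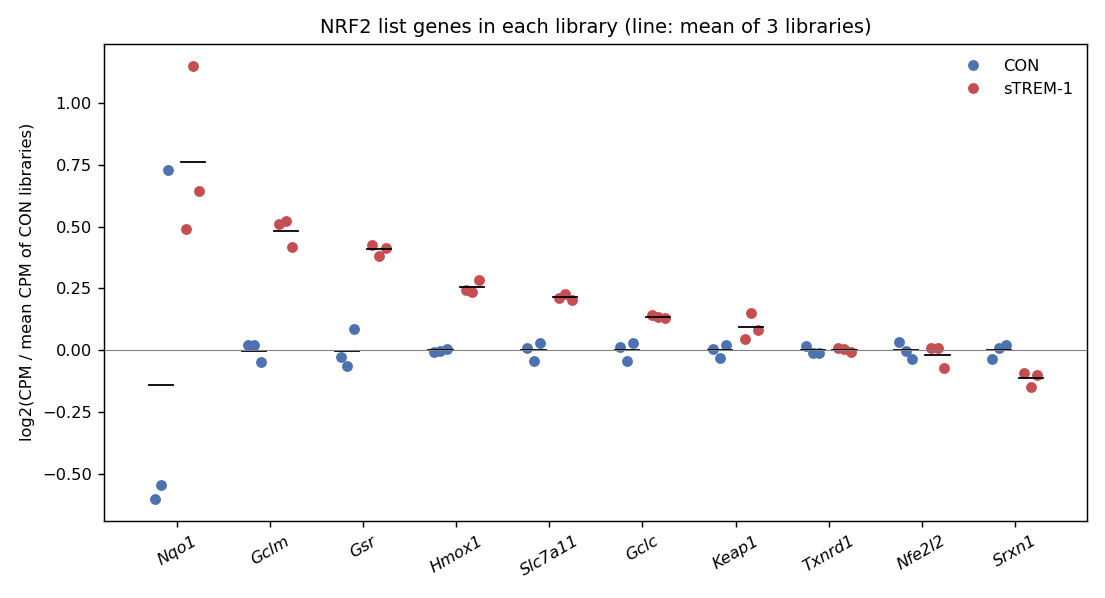
The vertical axis gives the log2 ratio of a library's CPM to the mean CPM of the CON libraries, for each of the 10 genes on the horizontal axis. Points are single libraries (blue CON, red sTREM-1) and lines are means of 3 libraries. All red points lie above all blue points for Gclm, Gsr, Hmox1, Slc7a11, Gclc and Keap1 and below them for Srxn1, and the Nqo1 libraries are the most scattered.

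Levels were compared between genes per kb of annotated exon (GENCODE M21, GRCm38). In the CON group Hmox1 was by far the most abundant, with 353 ± 1.3 CPM per kb (SD, n = 3). Srxn1 (68.0 ± 1.41), Nfe2l2 (53.5 ± 1.28) and Txnrd1 (39.3 ± 0.460 CPM per kb) formed the next steps, followed by Slc7a11 (23.8 ± 0.603), Gclc (21 ± 0.529) and Gsr (18.1 ± 0.976). Gclm was at 7.60 ± 0.214, Keap1 at 4.63 ± 0.0831 and Nqo1 at 0.572 ± 0.324 CPM per kb. No 2 neighbours in this order overlapped between libraries, in either group. The order after sTREM-1 was the same except that Gsr (24 ± 0.374 CPM per kb) stood above Gclc (23.1 ± 0.0961). The order depended on the length used. With the longest protein-coding transcript instead, a length chosen after the data were seen, Txnrd1 had 76.9 and Nfe2l2 had 82.0 CPM per kb in the CON group, both above Srxn1 (68.2), and Gclc (25.4) stayed above Gsr (24.7) after sTREM-1.

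**Figure D2:**
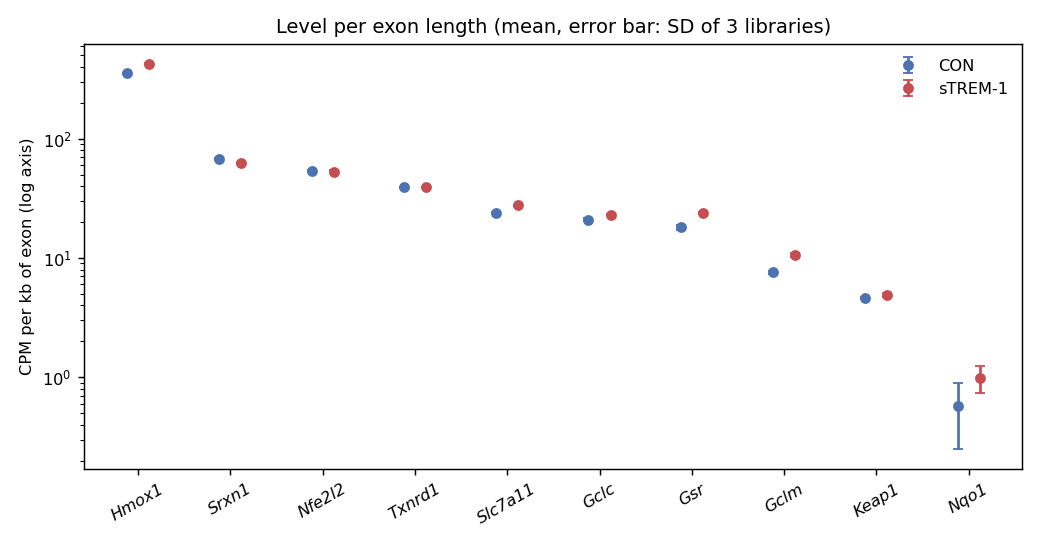
The vertical log axis gives the level per exon length (CPM per kb) of the 10 genes, as means with the SD of 3 libraries (blue CON, red sTREM-1). Hmox1 stands at 353 and 422 CPM per kb and Nqo1, the lowest, at 0.572 and 0.988.

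Promoters were looked up because NRF2 acts through letters in the DNA. In the RefSeq promoter table of GRCm38.p6 (250 bases before to 50 bases from each start site on), 9 promoters of 7 of the genes were found, and Hmox1, Gclc and Gsr had no entry. The core of the ARE was searched on both strands as TGACNNNGC, and 4 of the 9 promoters held it (those of Nfe2l2, Gclm and Srxn1, and 1 of 3 of Txnrd1), as did 12.4% of all 32851 promoters. A second form, TGANTCAGC, contains the AP-1 letters TGANTCA and was added after the sequences were seen. Of the 9 promoters only that of Srxn1 held it, as did 1.19% of all promoters. The AP-1 letters, within this second form or outside it, were in 7.81% of all promoters. The ARE matches that lie before the start site are printed on the strand of the gene, with the matching letters in capitals. A match is a description of the letters and not a measured binding site.
Gclm, chr3:122245403-122245451, + strand, match on the opposite strand, first base at -134: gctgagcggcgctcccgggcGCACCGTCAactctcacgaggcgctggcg
Txnrd1, chr10:82859094-82859142, + strand, match on the opposite strand, first base at -92: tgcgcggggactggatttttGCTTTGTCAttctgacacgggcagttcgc
Nfe2l2, chr2:75704875-75704913, - strand, match on the gene's strand, first base at -240: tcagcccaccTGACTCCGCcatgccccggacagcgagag
Srxn1, chr2:152105459-152105507, + strand, second form, first base at -45: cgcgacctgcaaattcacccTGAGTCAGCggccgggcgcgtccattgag
These sequences belong to a gene that rose (Gclm), to a pair that did not pass the test (Txnrd1 and Nfe2l2) and to the gene that fell (Srxn1). Of the genes that rose, only Gclm and Slc7a11 had a promoter entry, and that of Slc7a11 held no match. Sequence outside the window was not searched, so a gene without a match here may hold AREs elsewhere. Whether the letters go with the direction of change was not tested.

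The regulators come first. Nfe2l2 (ENSMUSG00000015839.6), on chromosome 2 from 75675513 to 75704641 of GRCm38, had 208, 203 and 198 CPM in CON replicates 1, 2 and 3 and 204, 204 and 194 CPM in the sTREM-1 libraries. The groups overlapped, the difference on the log2 scale was -0.02 (SE 0.03, the standard error; edgeR adjusted p = 0.735), and the 95% interval of the difference ran from -5.03% to 3.00%. Keap1 (ENSMUSG00000003308.15, chromosome 9 from 21229730 to 21239361) had 21.8, 21.3 and 22.0 CPM in the CON group and 22.4, 24.1 and 23.0 CPM after sTREM-1. Every treated library lay above every CON library, but the log2 fold change of 0.09 (SE 0.06) did not pass the test (edgeR adjusted p = 0.292; interval -2.40% to 16.6%). Gm16754, annotated on the opposite strand, overlaps 510 bp of its exons, and the strand used in counting is not given in the sources used here. The ratio of Nfe2l2 to Keap1 counts within a library was 9.36 ± 0.307 in the CON group and 8.67 ± 0.386 after sTREM-1 (SD, n = 3 each), with overlapping libraries (exact permutation test, two-sided, p = 0.2).

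The supply of cysteine and the making of glutathione were described next. Slc7a11 encodes xCT, the light chain of the exchanger that imports cystine in return for glutamate. It lies on chromosome 3 from 49892526 to 50443614 (ENSMUSG00000027737.10) and had 334, 323 and 339 CPM in the CON libraries and 385, 389 and 382 CPM in the sTREM-1 libraries. All treated libraries were above all CON libraries, with a log2 fold change of 0.21 (SE 0.02, edgeR adjusted p = 3.7e-08). Its heavy chain partner Slc3a2 had 353 ± 2.70 CPM and 366 ± 8.75 CPM (SD, n = 3 each) and did not pass (log2 fold change 0.05, edgeR adjusted p = 0.106). Within libraries the Slc7a11 to Slc3a2 ratio was 0.943, 0.921 and 0.954 in the CON group and 1.06, 1.08 and 1.02 after sTREM-1, without overlap.

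Glutamate-cysteine ligase, the rate-limiting enzyme of glutathione synthesis, has a catalytic subunit (Gclc) and a modifier subunit (Gclm) that raises its affinity for glutamate. Gclm, on chromosome 3 from 122245557 to 122270732 (ENSMUSG00000028124.15), had 48.6, 48.6 and 46.2 CPM in the CON group and 68.0, 68.7 and 63.8 CPM after sTREM-1. This was the clearest rise of a glutathione gene in the list, with separated groups and a log2 fold change of 0.48 (SE 0.04, edgeR adjusted p = 1.7e-10), which only 3.70% of all tested genes exceeded. Gm6061 overlaps 244 bp of its exons on the same strand, with 161 to 205 counts per library against 1888 to 3108 for Gclm, and Gm17494 overlaps 296 bp on the opposite strand. Gclc (ENSMUSG00000032350.9, chromosome 9 from 77754535 to 77794485) had 79.8, 76.9 and 80.7 CPM in the CON group and 87.3, 86.9 and 86.5 CPM after sTREM-1. The groups did not overlap, and the log2 fold change was 0.14 (SE 0.03, edgeR adjusted p = 0.0030). The count ratio of Gclc to Gclm accordingly lay lower after sTREM-1 in all libraries, at 1.64, 1.58 and 1.74 in the CON group and 1.28, 1.26 and 1.36 after treatment. Gss, which encodes the synthetase of the second step, rose from 15.4 ± 0.656 to 20.04 ± 1.37 CPM (SD, n = 3 each; log2 fold change 0.38, edgeR adjusted p = 1.9e-04).

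Gsr encodes glutathione reductase, which returns oxidized glutathione to its reduced form with NADPH. The gene (ENSMUSG00000031584.16, chromosome 8 from 33652523 to 33698163) had 48.8, 47.7 and 52.8 CPM in the CON libraries and 66.9, 64.9 and 66.3 CPM in the sTREM-1 libraries. The groups were separated, with a log2 fold change of 0.41 (SE 0.04, edgeR adjusted p = 7.3e-09). Txnrd1, the cytosolic thioredoxin reductase gene (ENSMUSG00000020250.10, chromosome 10 from 82833951 to 82897712), had 282, 277 and 277 CPM in the CON group and 281, 280 and 277 CPM after sTREM-1. Its libraries overlapped, and the log2 fold change of 0.0032 (SE 0.02, edgeR adjusted p = 0.945) had an interval from -3.18% to 3.74%. Srxn1 encodes sulfiredoxin, which repairs over-oxidized peroxiredoxins. On chromosome 2 from 152105516 to 152111376 (ENSMUSG00000032802.8), it had 187, 193 and 195 CPM in the CON group and 180, 173 and 179 CPM after sTREM-1. It was the member that fell, in all 3 libraries, with a log2 fold change of -0.11 (SE 0.03, edgeR adjusted p = 0.0023). It is also the gene whose promoter holds the second ARE form printed above.

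Hmox1 encodes heme oxygenase 1, which breaks heme down to biliverdin, iron and carbon monoxide. With the most counts of the list, it lies on chromosome 8 from 75093621 to 75100589 (ENSMUSG00000005413.8) and had 617, 619 and 621 CPM in the CON group and 732, 729 and 755 CPM after sTREM-1. The groups were widely separated relative to their spread, and the log2 fold change was 0.26 (SE 0.02, edgeR adjusted p = 8.5e-11). Bach1 encodes the repressor that competes with NRF2 at Hmox1, and it also rose, from 114 ± 3.81 to 123 ± 4.26 CPM (SD, n = 3 each; log2 fold change 0.12, edgeR adjusted p = 0.0060), a call lost without sTREM-1 replicate 1 (log2 fold change 0.09, edgeR adjusted p = 0.0779). The Hmox1 to Bach1 ratio was 5.53, 5.56 and 5.26 in the CON group and 5.71, 6.04 and 6.23 after sTREM-1.

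Nqo1, the gene of a quinone reductase that is a common readout of NRF2, was hardly expressed. The gene (ENSMUSG00000003849.8, chromosome 8 from 107388225 to 107403206) collected 24, 25 and 60 counts without treatment and 57, 84 and 55 counts with it. The third CON library lay above 2 of the 3 treated libraries, so the groups overlapped. The log2 fold change was the largest of the list, 0.79, but with an SE of 0.33 it did not pass (edgeR adjusted p = 0.0714). The call turned on 1 library and on the fit, since without CON replicate 3 the log2 fold change was 1.35 (edgeR adjusted p = 0.0051), and when replicate numbers entered the fit as a block it was 0.86 (edgeR adjusted p = 0.0358).

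The 5 ratios of partner genes were compared over libraries, and 4 of them (all but Nfe2l2 to Keap1) did not overlap between groups. For these 4 the exact permutation test (two-sided) gave p = 0.1, the smallest that 3 libraries against 3 allow, and 0.125 after Benjamini-Hochberg adjustment over the 5 ratios. The largest shift was that of Gclc to Gclm, with a log2 difference of -0.35. The Txnrd1 to Txn1 ratio went from 2.40 ± 0.0727 to 2.20 ± 0.0547 (SD, n = 3 each). A ratio within a library does not depend on the scaling.

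**Figure D3:**
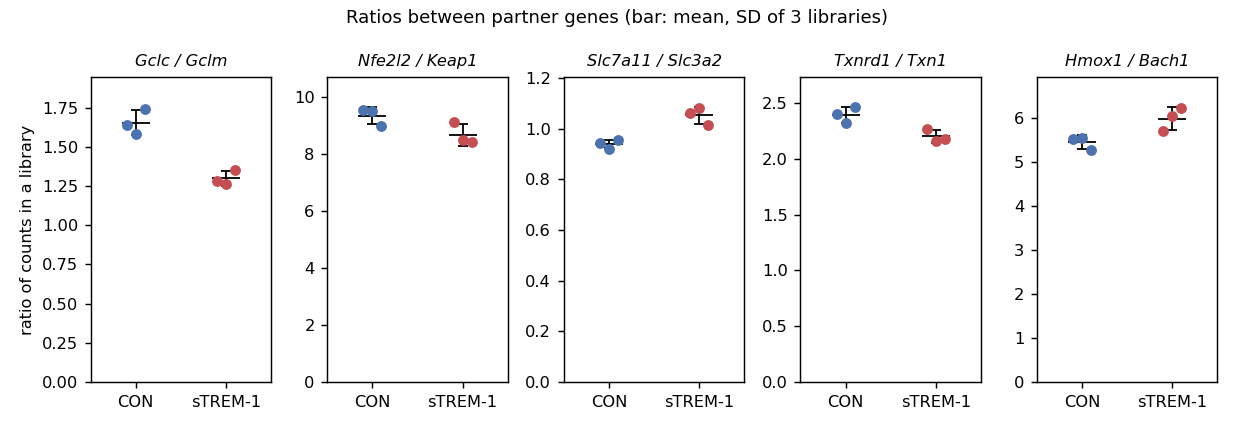
Each panel gives the ratio of the counts of 2 partner genes within a library (vertical axis, from 0), for 3 CON (blue) and 3 sTREM-1 (red) libraries with the mean and SD. Gclc to Gclm lies at 1.58 to 1.74 in the CON group and 1.26 to 1.36 after sTREM-1, and Nfe2l2 to Keap1 overlaps between groups.

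The wider pathway was covered by 6 further lists of 108 genes, of which 93 were tested and 10 had 0 counts in all libraries. In these lists 38 genes rose and 12 fell, and 43 did not pass, so that 53.8% were called against 30.5% of all tested genes. These lists, like the 10 genes, were chosen with earlier results of these data known. Expression level was not matched in such comparisons. The regulators of NRF2 (15 tested) had 2 genes higher and 5 lower, against 16.5% and 14.1% of all tested genes. Their median was -0.03 on the log2 scale. Sqstm1 encodes p62, an autophagy receptor that sequesters KEAP1 and is itself an NRF2 target. Its level fell from 3542 ± 98.7 CPM to 2905 ± 97.7 CPM (SD, n = 3 each; -0.29 on the log2 scale, edgeR adjusted p = 5.6e-12). Mafk and Maff, small MAF partners of NRF2, were named after their values were seen. Mafk fell by 0.33 on the log2 scale. Maff and Mafg, the other small MAF genes of the list, had log2 fold changes of -0.03 and 0.0099 and did not pass. Fyn, a kinase linked to nuclear export of NRF2, fell by 0.33, and Dpp3, whose product binds KEAP1, rose by 0.24 on the log2 scale. Cul3 had a log2 fold change of -0.08 (edgeR adjusted p = 0.0340) and lost the call when any of 4 of the 6 libraries was omitted (CON replicates 1 and 3, sTREM-1 replicates 1 and 3). Nfe2l1, the gene of a related factor, had a log2 fold change of 0.04 (edgeR adjusted p = 0.154).

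Among the genes of glutathione synthesis and use, 9 of 25 tested rose and 4 fell, against 16.5% and 14.1% of all tested genes, with a median log2 fold change of 0.16. Besides Gss, the genes that rose included Esd, an esterase gene (331 ± 5.16 to 383 ± 7.23 CPM, SD, n = 3 each). Abcc1, which encodes an exporter of glutathione conjugates, also rose (195 ± 5.78 to 223 ± 6.67 CPM). The glutathione peroxidases Gpx1 and Gpx4 had log2 fold changes of -0.06 and 0.05 and did not pass (edgeR adjusted p = 0.113 and adjusted p = 0.199), and Gpx1 passed as lower when libraries were scaled by total counts or the upper quartile. Chac1, which encodes an enzyme that degrades glutathione, was low, with 2.20 ± 0.442 and 2.75 ± 0.592 CPM, and did not pass (edgeR adjusted p = 0.270). Gsto1, a glutathione transferase gene, fell by 0.11 on the log2 scale. Gstp1 had the lowest log2 fold change, -2.97, from 342, 61 and 310 counts without treatment to 42, 28 and 25 with it, and CON replicate 2 stood far below the other CON libraries. It has a near-identical paralog, Gstp2, and how shared reads were assigned was not tested.

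In the short list of superoxide and peroxide removal, which leaves peroxidases to other lists, 5 of 5 tested genes were called higher, against 16.5% of all tested genes. They were Sod1, Sod2, Cat, Ccs and Park7, with a median of 0.32 on the log2 scale (Sod3 was at 0). Ccs, Park7 and Sod3 were named after their values were seen. Of the peroxiredoxin genes Prdx1 and Prdx4 passed as higher, Prdx6 as lower (log2 fold change -0.08, edgeR adjusted p = 0.0394), and Prdx2, Prdx3 and Prdx5 did not pass. The Prdx4 call was lost without CON replicates 2 or 3 or sTREM-1 replicates 1 or 2 (log2 fold change 0.06 to 0.09 over the 6 fits that omit a library), and the Prdx6 call without CON replicates 1 or 2 or sTREM-1 replicates 1 or 3 (-0.11 to -0.06). All peroxiredoxin genes but Prdx1 were named after their values were seen. Cat, which encodes catalase, had 122, 117 and 125 CPM in the CON group and 166, 164 and 172 CPM after sTREM-1. The groups were far apart, with a log2 fold change of 0.47 (SE 0.03, edgeR adjusted p = 6.4e-13). Sod2, the mitochondrial superoxide dismutase gene, rose from 81.3 ± 2.69 to 107 ± 0.737 CPM and the cytosolic Sod1 from 143 ± 3.03 to 160 ± 5.0 CPM (SD, n = 3 each; log2 fold changes 0.40 and 0.16). In the thioredoxin and peroxiredoxin list 6 of 18 rose and 2 fell, against 16.5% and 14.1% of all tested genes. The count moved to 3 higher and 2 lower without CON replicate 3 and to 4 higher and 1 lower without sTREM-1 replicate 1. Txn1 (thioredoxin), Prdx1 (a peroxiredoxin) and Sesn2 (a stress-induced sestrin) rose by 0.12, 0.09 and 0.18 on the log2 scale, and Txnip, which encodes an inhibitor of thioredoxin, fell from 2122 ± 10 to 1891 ± 13.1 CPM (SD, n = 3 each; log2 fold change -0.17, edgeR adjusted p = 1.1e-08).

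Of 11 tested genes that supply NADPH, the reductant used by glutathione and thioredoxin reductases, 8 were higher and 0 lower (median 0.26 on the log2 scale). Among all tested genes 16.5% were higher and 14.1% lower. Idh1, the cytosolic isocitrate dehydrogenase gene, had the largest rise, from 66.0, 65.6 and 63.1 CPM to 99.5, 94.1 and 95.5 CPM (log2 fold change 0.57, standard error 0.04, edgeR adjusted p = 2.3e-13). G6pdx, which encodes the entry enzyme of the pentose phosphate pathway, rose from 179 ± 2.51 to 237 ± 10.1 CPM, and Me1 (malic enzyme) from 148 ± 3.58 to 196 ± 5.02 CPM (SD, n = 3 each; log2 fold changes 0.40 and 0.40). Pgd, the next NADPH step of that pathway, was called higher (log2 fold change 0.42) although its libraries overlapped. In the list of detoxification, heme and iron genes 8 of 19 rose and 1 fell, against the same 16.5% and 14.1%, with a median of 0.08. Ugdh (UDP-glucose dehydrogenase) and Slc48a1 (a heme transporter of lysosomes) rose by 0.59 and 0.51 on the log2 scale, Ptgr1, named after its values were seen, by 0.66, and Gdf15, a stress cytokine gene, fell by 0.35. Of the biliverdin reductase genes, Blvrb rose by 0.28 (edgeR adjusted p = 1.0e-06), while Blvra had a log2 fold change of 0.08 and did not pass (edgeR adjusted p = 0.127). The ferritin genes Fth1 (11242 ± 43.5 and 11369 ± 263 CPM) and Ftl1 (4216 ± 59.9 and 4268 ± 37.8 CPM; SD, n = 3 each) both had a log2 fold change of 0.02 and did not pass (edgeR adjusted p = 0.472 and adjusted p = 0.464).

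**Figure D4:**
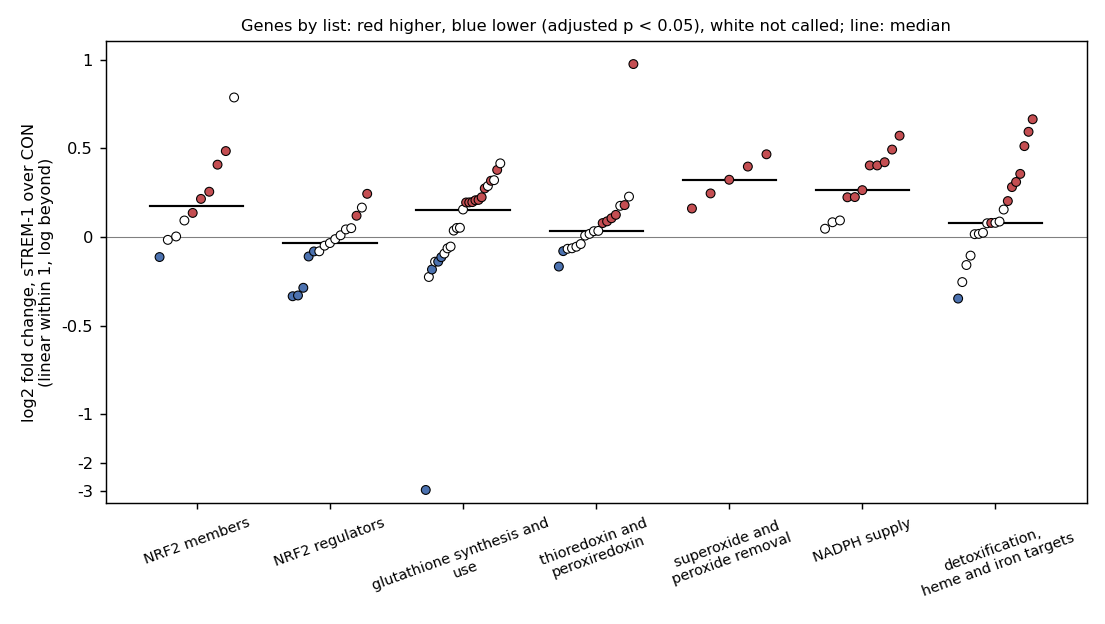
The vertical axis gives the log2 fold change of sTREM-1 over CON (linear within 1, log beyond) for each tested gene of the 7 lists on the horizontal axis, red where higher and blue where lower at an adjusted p-value under 0.05, white where not called, with the median as a line. All 5 tested genes of the superoxide and peroxide list and 8 of 11 NADPH genes are red, and Gstp1 stands alone at -2.97.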

How the data were processed

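RNA-seq libraries of BV2 cells were analysed, 3 CON and 3 sTREM-1 (the methods of the study give n = 4 for the cultures, a difference that the sources used here do not explain), and groups and replicate numbers were taken from the labels. The deposited values are raw counts, whole numbers for each gene symbol. Their methods name FastQC, RSEM and edgeR. The submitters' processing notes list HISAT2 2.0.4 and the human builds hg19 and GRCh38 without a role, although the symbols are those of mouse, and the annotation and strand are not given in the sources used here. Nothing states that the libraries came from separate wells or independent cultures, so p-values measure the spread between these libraries, which may be technical. Variation within groups beyond counting noise was low, 3.99% as edgeR's common coefficient of variation.

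Low genes were removed by filterByExpr (at least 10 counts). After TMM scaling, edgeR 4.0.16 (R 4.3.3) gave quasi-likelihood tests without covariate, with Benjamini-Hochberg adjustment over all tested genes. Each SE was derived from the log2 fold change and its F value. The procedure was tested on simulated data. Members, lists and tests were chosen with earlier results of these data known. The genes named are the 10 members, a fixed set of partners, and per further list at most 2 genes per direction of smallest p with separated groups, and others are marked. Over the longest protein-coding transcript of each member, 7 members shared no stretch of 50 bases with transcripts of another gene. Keap1, Slc7a11 and Gclm shared 10.4%, 1.97% and 0.776% of such stretches. Exon sequence outside these transcripts was not searched. Alternatives were RLE, upper quartile and total count scaling, other filters, DESeq2 1.42.0, a replicate block, each library left out and a minimum fold of 1.2. No library was a copy of another: within a group, chi-square per gene was 3.46 to 5.04, above sampling noise.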

Additional observations from a re-analysis of the deposited data

How the results depend on the processing

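Of 228 alternative values of the counts and log2 fold changes, 210 kept their direction and their side of the threshold, or for counts stayed within 1.5 times. The 35 alternative values of the ratios kept their sign, and their exact p-values could not have passed the threshold. Hmox1, Gclm, Gsr, Slc7a11, Gclc and Srxn1 kept their call and direction in all 13 refits each. With at least a 1.2-fold change the called genes fell to 2 members (Gclm and Gsr), 3 regulators, 4 glutathione genes, 1 thioredoxin gene and 3 superoxide and peroxide genes, because small changes are then left out, and 6 NADPH and 7 detoxification genes were still called (10.7% of all tested genes). Nqo1 passed the threshold without a filter on low counts (log2 fold change 0.79, edgeR adjusted p = 0.0403), with the replicate block (0.86) and without CON replicate 3 (1.35); without each library it ran from 0.56 to 1.35. The cause of the first 2 was not tested. Members called numbered 6 to 7 without each library, and the thioredoxin list 5 to 6. Nfe2l2 and Txnrd1, both near 0, changed sign without passing. Nfe2l2 ran from -0.0342 to 0.0081 without each library. Txnrd1 was at -0.0134 with total counts, -0.0177 with upper quartile scaling and -1.8e-07 with at least 10 counts in every library, and ran from -0.0038 to 0.0125 without each library.

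Same-numbered libraries deviated from their group means with correlations of -0.018, -0.033 and -0.014 across genes, so that the numbers gave no sign of pairing. With the replicate block 7 members were called (Nqo1 in addition), 4613 genes in all against 4312, and the paired differences of the ratios had the same sign, with exact p-values of at least 0.25, the smallest that 3 pairs allow. No other call of a member changed with the block.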
